A study of Mus musculus with 6 samples.

Results

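The genes of the mRNA decay machinery were examined in polyA RNA-Seq libraries of murine embryonic stem cells (mESCs). The set was chosen by gene symbol, and takes in the deadenylases of the CCR4-NOT and PAN2-PAN3 complexes, the Tob adaptors, the Zfp36 family, the decapping factors, the Lsm proteins, the Xrn exonucleases, the RNA exosome and the nonsense-mediated decay (NMD) factors. The symbols matched 57 of the 39017 genes in the count tables, with 56 distinct symbols, because Tob2 stands in the tables under 2 gene identifiers, and 56 of the 57 genes are described here. The subunits Cnot9 and Lsm8 are listed under the older symbols Rqcd1 and Naa38 and so were not matched by the rule, and Exosc6 was not analysed here.

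There were 3 groups of 2 libraries. The untreated group is the Pol II degron line, V6.5 mESCs in which both copies of the gene for RPB1, the largest subunit of Pol II, carry an mAID-GFP tag at the C terminus, and in which OsTIR1, a plant protein that marks mAID fusions for degradation when auxin is present, was induced with doxycycline at 1 µg/ml for 12 h. The auxin-treated group is the same line with the same doxycycline treatment and with 500 µM indole-3-acetic acid (auxin) for 6 h. The wild-type group is V6.5 mESCs, labelled as wild type for Pol2. All cells were grown on irradiated mouse embryonic fibroblasts (feeders) in medium with serum and leukaemia inhibiting factor. Harvest followed 2 passages of the feeders, as the paper puts it. The degron line was selected as a single clone, OsTIR1 was inserted at Rosa26, and the doxycycline step is stated for degron cells only, so that the tag, the clone, OsTIR1, doxycycline and the preparation of the libraries cannot be told apart in the wild-type comparison. The labels do not say that the 2 libraries of a group came from separate cultures, and p-values measure only the spread between these libraries.

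An mRNA usually begins to decay when its poly(A) tail is shortened, first by PAN2-PAN3 and then by CCR4-NOT. The shortened mRNA is either decapped by DCP2 with the help of the Lsm1-7 ring and the EDC proteins and digested from the 5′ end by XRN1, or digested from the 3′ end by the exosome. Tob and Zfp36 proteins bring CCR4-NOT to chosen mRNAs, Zfp36 proteins by binding AU-rich sequences in 3′ untranslated regions. NMD, led by the helicase UPF1, removes mRNAs with a premature stop codon.

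Each library had 14094022 to 15358714 counts in total, and the members took between 0.476% and 0.520% of them. Polr2a, which encodes RPB1, was higher by a log2 fold change of 0.57 (SE 0.0714) after auxin (edgeR quasi-likelihood test, adjusted p = 0.00117), and its mRNA does not check the degradation of the protein. In the wild-type libraries Polr2a differed by 0.10 (adjusted p = 0.172). All 10 pluripotency markers examined had over 3 counts in every library, and their summed level was 4432 to 5063 CPM (counts per 1000000 counts, after TMM scaling) in untreated, 3611 to 3881 CPM in auxin-treated and 7418 to 7502 CPM in wild-type libraries. Single markers did not all follow these sums: by edgeR 0 were called higher and 5 lower after auxin, and 6 higher and 1 lower in wild-type cells. The records of the wild-type libraries mention retinas in the extraction of RNA, but 8 retina markers summed to 1.55 to 1.74 CPM there, and Rcvrn and Crx had no count in any library. The 8 markers of feeder fibroblasts summed to 169 to 172 CPM in untreated, 188 to 217 CPM in auxin-treated and 134 to 138 CPM in wild-type libraries. Lum had no count in any degron library and at most 1 in a wild-type library, and Dcn had 0 to 4 counts per library. The part of these cells in the results that follow was not tested.

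Levels within the set were compared per kb of exon, as the mean CPM of a group divided by the length of the annotated exons of the gene. In untreated cells they ran from 0.147 CPM per kb for Zfp36l3, a family member known from the placenta, to 243 CPM per kb for Lsm4. The other genes of the Lsm1-7 ring lay between 9.93 (Lsm1) and 51.7 CPM per kb (Lsm5). Members of one complex did not have one level. Within CCR4-NOT, the catalytic subunits stood at 56.5 CPM per kb for Cnot8, 16.2 for Cnot7, 15.3 for Cnot6 and 3.37 for Cnot6l, and the scaffold subunit Cnot1 stood at 42.9. Pan2 (12.2 CPM per kb) was above its partner Pan3 (2.18), and the nuclear exonuclease Xrn2 (41.1) above the cytoplasmic Xrn1 (3.15). The exosome genes spanned 7.14 CPM per kb for Exosc9 to 39.0 for Exosc3, and the NMD genes spanned 8.33 for Upf3b to 36.0 for Upf1. Annotated exon lengths include rarely used exons, so a gene with many annotated exons is placed too low.

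**Figure D1:**
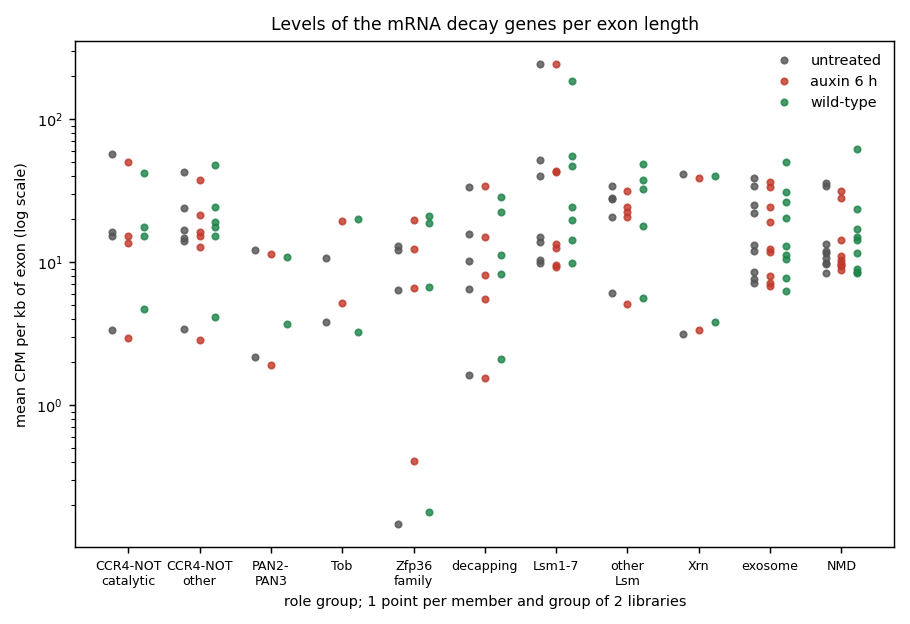
Mean CPM per kb of exon (log scale) of each member in untreated, auxin-treated and wild-type cells, grouped by role, with 1 point per member and group of 2 libraries. In each group Lsm4 is the highest point (243, 241 and 184 CPM per kb) and Zfp36l3 the lowest (0.147, 0.405 and 0.179).

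The first comparison asked whether the mRNAs of the decay factors changed while Pol II was depleted. After 6 h of auxin the mRNAs of Tob1, Tob2 and Zfp36l1 rose relative to the other mRNAs, under TMM scaling. No other described member passed the test. Of the 56 described members 55 were tested, and the second Tob2 entry, with 1 to 6 counts per library, did not pass the filter on low counts. The 3 called members are 5.45% of those tested, beside 4.20% of all 16128 genes tested, and 3.95% of the well-counted genes, those averaging 100 counts or more per library. By direction, 3 members were higher, beside 2.56% of all genes, and none was lower by edgeR or by DESeq2, beside 1.64% of all genes called lower by edgeR. At an unadjusted p under 0.05 there were 14 lower members. Many genes meet that limit: Dcp1a, at an edgeR p of 0.0447, ranked 3072 by p among the 16128 genes tested. The same holds for the counts at that limit given below by role group and for the further decay genes. The share of all genes at that limit in each direction is not given here. No member was called with an absolute log2 fold change over 1 by edgeR or by DESeq2, 1 (Zfp36l3) was past that size at an unadjusted p under 0.05, and 1.53% of all genes met the called form of that rule. The log2 fold change was positive in 18 members and negative in 37, with a median of −0.07 over the members, −0.0004 over all genes tested and −0.02 over the well-counted genes. It was under 0.5 in absolute size for 52 of the 55 members and for 88.7% of all genes tested.

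Tob1 (ENSMUSG00000037573, chr11:94211454-94215495 on the plus strand of mm10) encodes an antiproliferative adaptor that binds the CCR4-NOT deadenylases and the poly(A)-binding protein. It had 358 and 347 counts in untreated and 732 and 656 counts in auxin-treated libraries. Both auxin-treated libraries were well above both untreated ones, and the gene overlaps no other annotated gene. The log2 fold change was 0.87 (SE 0.0901, edgeR adjusted p = 0.000284), or 1.83-fold. The call held in all 12 alternatives tried, with log2 fold changes between 0.71 (scaling to the mitochondrial mRNAs, adjusted p = 0.0437) and 0.93.

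Tob2 (ENSMUSG00000048546, chr15:81848272-81858796, minus strand), the closest relative of Tob1, had 370 and 366 counts in untreated and 534 and 549 counts in auxin-treated libraries. The groups did not overlap, as was also so in members not called, such as Pan2 (edgeR adjusted p = 0.614). The log2 fold change of Tob2 was 0.45 (SE 0.0895, edgeR adjusted p = 0.0143). This call was lost in DESeq2 (adjusted p = 0.123) and when 1 auxin-treated library was left out (adjusted p = 0.0710 without replicate 1 and 0.149 without replicate 2), with a log2 fold change of 0.41 to 0.49. It was also lost with scaling to the mitochondrial mRNAs (adjusted p = 0.574) and with no filter on low counts (adjusted p = 0.0984).

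Zfp36l1 (ENSMUSG00000021127, chr12:80107754-80113013, minus strand) encodes a zinc finger protein that binds AU-rich elements and directs mRNAs to deadenylation. It had 582 and 547 counts in untreated and 878 and 975 counts in auxin-treated libraries. The log2 fold change was 0.61 (SE 0.0873, edgeR adjusted p = 0.00282), and the call was lost with scaling to the mitochondrial mRNAs (adjusted p = 0.364) and with no filter on low counts (adjusted p = 0.0645). Of its 100-base stretches, 47.6% also lie in transcripts of Gm26669 on the other strand, and whether reads were counted by strand is not given in the sources used here, so its counts are uncertain. Gm26669 itself was listed with 0 to 3 counts in the degron libraries.

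The promoters of the 3 genes that rose are shown because these genes moved in one direction. Each runs from 250 bases before to 50 bases after the RefSeq start, 5′ to 3′ along the gene (RefSeq, GRCm38.p6), and capitals mark, on either strand, TGACG (one arm of the cyclic AMP response element), the CCAAT box, the TATA box, searched as TATAAA, and the serum response element core.
Tob1, chr11:94211204-94211503, plus strand: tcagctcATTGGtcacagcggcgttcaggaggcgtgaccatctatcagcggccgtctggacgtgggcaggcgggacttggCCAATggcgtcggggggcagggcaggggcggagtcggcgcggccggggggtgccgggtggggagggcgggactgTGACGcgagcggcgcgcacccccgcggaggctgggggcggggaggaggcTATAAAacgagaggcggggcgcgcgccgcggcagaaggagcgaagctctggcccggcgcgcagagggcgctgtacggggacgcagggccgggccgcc
Zfp36l1, chr12:80112964-80113263, minus strand: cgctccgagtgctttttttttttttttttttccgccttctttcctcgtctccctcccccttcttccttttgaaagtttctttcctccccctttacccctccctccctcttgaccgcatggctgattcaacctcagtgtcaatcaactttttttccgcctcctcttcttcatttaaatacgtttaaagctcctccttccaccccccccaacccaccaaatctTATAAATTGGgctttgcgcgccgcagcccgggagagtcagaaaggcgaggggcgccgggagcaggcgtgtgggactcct
Tob2, chr15:81858277-81858576, minus strand: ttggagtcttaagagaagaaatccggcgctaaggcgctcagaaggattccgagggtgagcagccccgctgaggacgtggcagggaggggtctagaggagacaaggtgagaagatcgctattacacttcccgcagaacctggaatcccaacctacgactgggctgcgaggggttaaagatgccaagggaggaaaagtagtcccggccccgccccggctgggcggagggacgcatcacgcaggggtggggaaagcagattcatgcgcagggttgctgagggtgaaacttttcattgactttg

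RefSeq gave 55 promoters of 300 bases for 46 member symbols. TATAAA, on either strand, was found in 2 of the 55 member promoters, those of Tob1 and Zfp36l1, and in 13.6% of all 32851 promoters. In the Zfp36l1 promoter it overlaps a CCAAT motif of the other strand by 1 base. The GC box GGGCGG was found in 39 member promoters (70.9%) and in 35.7% of all promoters, Tob1 with 3 matches and Tob2 with 2. Member promoters had a median GC content of 64%, against 52.7% for all. All 32851 promoters were taken whether or not their genes passed the filter here. The differences in TATAAA, GC box and GC content are thus not shown to be particular to decay genes. TGACG was present in 21.8% of member promoters and 20.8% of all, and CCAAT in 32.7% and 37.4%. The serum response element core was found in 1.82% of member promoters (Zfp36 alone) and 1.63% of all. The full cyclic AMP response element TGACGTCA, which holds TGACG, was found in 1.82% and 1.79%, the E-box CACGTG in 5.45% and 7.15%, and the AP-1 site, as TGACTCA or as TGAGTCA, in 0 of the 55 and in 5.20% of all. Such matches are letters in a window and not sites of binding.

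The heptamer TATTTAT, in RNA the sequence that Zfp36 proteins prefer, was sought on the sense strand of 1 annotated 3′ untranslated region per gene. It was found in 15 of 54 members (27.8%) and in 26.7% of the genes tested after auxin. Zfp36, Zfp36l1 and Zfp36l2, which encode proteins that bind this sequence, had 3 matches each. Tob2 had 1, and Tob1 had none. The matches in the genes that rose are given with 11 bases on each side and the heptamer in capitals.
Zfp36l1, chr12:80108422-80108450, minus strand: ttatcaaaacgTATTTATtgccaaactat
Zfp36l1, chr12:80108381-80108409, minus strand: aattttgttcaTATTTATcgggatgacaa
Zfp36l1, chr12:80108167-80108195, minus strand: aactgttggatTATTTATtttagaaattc
Tob2, chr15:81849860-81849888, minus strand: tatcacctgctTATTTATgtacgaggttg

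The other Zfp36 genes did not pass the test. Zfp36, which encodes tristetraprolin, had 344 and 296 counts in untreated and 363 and 360 in auxin-treated libraries, for a log2 fold change of 0.07 (95% interval −0.16 to 0.30, adjusted p = 0.775). Zfp36l2 had 627 and 605 against 653 and 708 counts, a log2 fold change of 0.04 (interval −0.14 to 0.22, adjusted p = 0.847). Zfp36l3 had 2 and 8 counts in untreated and 17 and 13 in auxin-treated libraries, and its log2 fold change of 1.46 (interval 0.25 to 2.67) did not pass over all genes (adjusted p = 0.163).

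**Figure D2:**
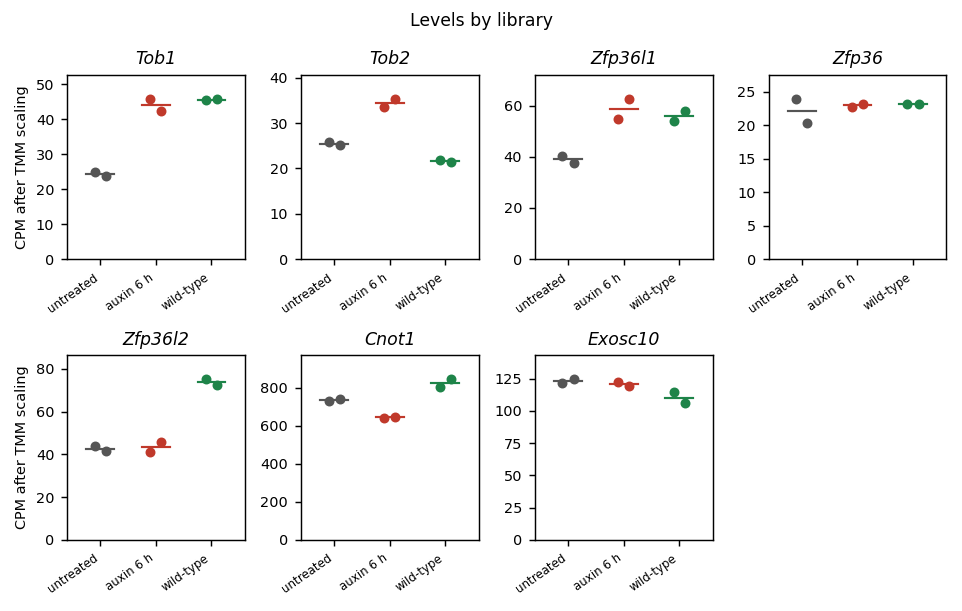
Levels in CPM after TMM scaling (y axis, from 0) of 7 members in the 6 libraries, with 1 point per library and a line at the mean of each group. Tob1, Tob2 and Zfp36l1 lie higher in both auxin-treated libraries than in both untreated ones, and the auxin-treated libraries lie within or near the untreated range for Zfp36, Zfp36l2 and Exosc10.

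Among the deadenylases no gene was called. The 4 catalytic subunits of CCR4-NOT had log2 fold changes of −0.16 (Cnot6l) to −0.08 (Cnot7), none at an unadjusted p under 0.05 and none called by DESeq2. The 6 other CCR4-NOT subunits ranged from −0.23 (Cnot4, a ubiquitin ligase, adjusted p = 0.209) to 0.14 (Cnot11), with 3 at an unadjusted p under 0.05, all lower, and none called by DESeq2. Cnot1, the scaffold of the complex, had the most counts of the set, 10477 and 10823 in untreated and 10246 and 10057 in auxin-treated libraries. On the CPM scale its auxin-treated libraries (642 and 648) lay below its untreated ones (730 and 743), with a log2 fold change of −0.17 (SE 0.0713, adjusted p = 0.197). Pan2, the catalytic subunit of PAN2-PAN3, differed by −0.07 (interval −0.21 to 0.07), and Pan3, which recruits it, by −0.18 (interval −0.39 to 0.02). Neither had an unadjusted p under 0.05 or a call in DESeq2.

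The genes of decapping and of decay from the 5′ end were not called either, by edgeR or by DESeq2. Edc3, which activates decapping, was the member nearest to the threshold on its outer side, with 820 and 880 counts in untreated and 720 and 762 in auxin-treated libraries. Its log2 fold change was −0.30 (SE 0.0789) at an adjusted p of 0.0506, and 18.8% of its 100-base stretches are shared with Clk3 on the other strand. Dcp2, the decapping enzyme, differed by −0.04 (interval −0.19 to 0.10). Xrn1 had 838 and 855 against 1023 and 940 counts, a log2 fold change of 0.11 (interval −0.05 to 0.27), and Xrn2 one of −0.06 (interval −0.21 to 0.09). Of 5 decapping genes 2 were at an unadjusted p under 0.05, both lower, and of the Xrn genes 0. Within the Lsm1-7 ring, which binds shortened tails, the 7 genes ranged from −0.27 (Lsm5, adjusted p = 0.124) to 0.13 (Lsm7), with 1 at an unadjusted p under 0.05. The 5 other Lsm genes ranged from −0.29 (Lsm10, a histone mRNA processing factor, adjusted p = 0.169) to 0.01 (Lsm14b), with 3 at an unadjusted p under 0.05, all lower.

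The 9 exosome genes ranged from −0.25 (Exosc1, a cap subunit, adjusted p = 0.176) to 0.08 (Exosc7). None was called by edgeR or DESeq2, and 2 were at an unadjusted p under 0.05, both lower. Exosc10, the catalytic subunit of the nuclear exosome, had 1746 and 1812 counts in untreated and 1960 and 1854 in auxin-treated libraries. Its log2 fold change was −0.003 (95% interval −0.15 to 0.14 under TMM scaling). Over the 12 alternatives it ran from −0.17 to 0.02, so that the interval does not cover the choice of scaling or fit.

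The NMD genes described, 9 in number, ranged from −0.31 (Smg8, a regulator of the kinase SMG1, adjusted p = 0.0713) to 0.11 (Upf3a). None was called by edgeR or DESeq2, and 3 were at an unadjusted p under 0.05, all lower. Upf1, the central helicase, differed by −0.17 (SE 0.067, adjusted p = 0.174), with 162 and 170 CPM in untreated and 142 and 149 CPM in auxin-treated libraries.

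The count of members that fell depended on the fit. It was 0 in the fit of the 4 libraries and 3 with all 3 groups in one fit. The count also changed when 1 untreated library was left out. The shares of all genes called lower in these other fits are not given here, so such counts are not a result about the members.

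**Figure D3:**
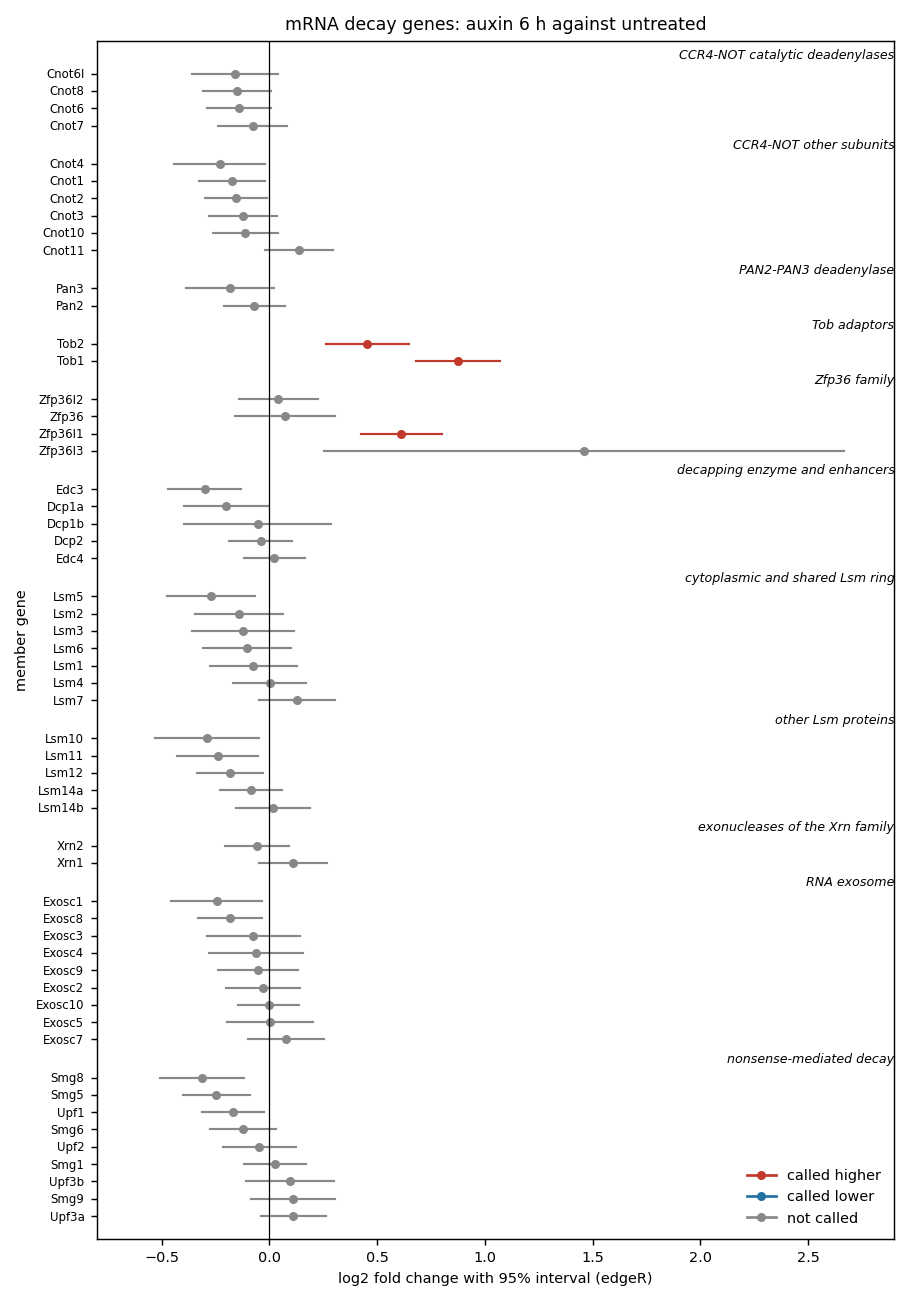
Log2 fold change (x axis) of the 55 members tested, auxin-treated against untreated, with the 95% interval from the edgeR fit, ordered by role and then by size. Tob1, Tob2 and Zfp36l1 (red) lie right of 0, none is called lower, and Zfp36l3, with few counts, has the widest interval (0.25 to 2.67).

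The second comparison set the wild-type cells beside the untreated degron cells, and asked how far the tagged line differs from V6.5 cells without the tag. The same untreated libraries served in both comparisons. Of 54 members tested, 36 (66.7%) were called, beside 60.6% of all 15778 genes tested and 67.0% of the well-counted genes, so that the members were called about as often as other well-counted genes. In the wild-type cells 26 members were higher, beside 29.9% of all genes, and 10 were lower, beside 30.7% of all genes. None was called with an absolute log2 fold change over 1 by edgeR or DESeq2, and none had such a size at an unadjusted p under 0.05, beside 18.1% of all genes called with that size. The median log2 fold change was 0.11 over the members, −0.01 over all genes tested and 0.03 over the well-counted genes. Zfp36l3 (7 and 5 counts in wild-type libraries) and the second Tob2 entry (4 and 3) did not pass the filter. Mitochondrial mRNAs took 1.50% to 1.53% of the counts in the wild-type libraries and 0.342% to 0.441% in the degron libraries, and the part of this difference in the results was not tested.

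The split of 26 higher and 10 lower depends on the scaling of the libraries. With library totals alone it was 22 and 14, beside 60.2% of all genes called in either direction. With scaling to the 13 mitochondrial mRNAs, which moved the median of all genes to −2.10, no member was higher and all 54 were lower. In that fit 97% of all genes were called. The directions given here are relative to TMM scaling. The count of lower members also changed when 1 wild-type library was left out.

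The NMD group held the lowest p-value of the set in this comparison. Upf1 was higher in wild-type cells, with 162 and 170 CPM in untreated and 288 and 283 CPM in wild-type libraries, a log2 fold change of 0.77 (SE 0.0595, edgeR adjusted p = 8.02e-07). Upf2, the adaptor between UPF1 and UPF3 proteins, stood at 63.8 and 63.7 against 96.5 and 90.5 CPM, with a log2 fold change of 0.54 (adjusted p = 3.77e-05). The UPF3 paralogs, which link UPF2 to the exon junction complex, differed in opposite directions. Upf3b, on the X chromosome, was higher in wild-type cells with 34.0 and 32.6 against 55.1 and 59.9 CPM, a log2 fold change of 0.78 (adjusted p = 5.97e-06). Upf3a was lower with 77.0 and 80.2 against 50.2 and 47.8 CPM, a log2 fold change of −0.69 (SE 0.07, adjusted p = 7.03e-06), the most negative value among the members. In both genes the untreated and wild-type libraries did not overlap, as was also so in members not called, such as Edc3 (edgeR adjusted p = 0.088).

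The SMG genes also went both ways. Smg1, the kinase of UPF1, was higher in wild-type cells (233 and 238 against 270 and 287 CPM, log2 fold change 0.23, adjusted p = 0.00523). Smg5, which encodes a protein that binds phosphorylated UPF1, was lower (224 and 246 against 158 and 171 CPM, log2 fold change −0.52, adjusted p = 4.84e-05). Smg6, the NMD endonuclease, was lower, with a log2 fold change of −0.33 (adjusted p = 0.00183). In all, 5 of the 9 NMD genes were higher, 3 were lower and Smg9 was not called, and DESeq2 gave the same counts.

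**Figure D4:**
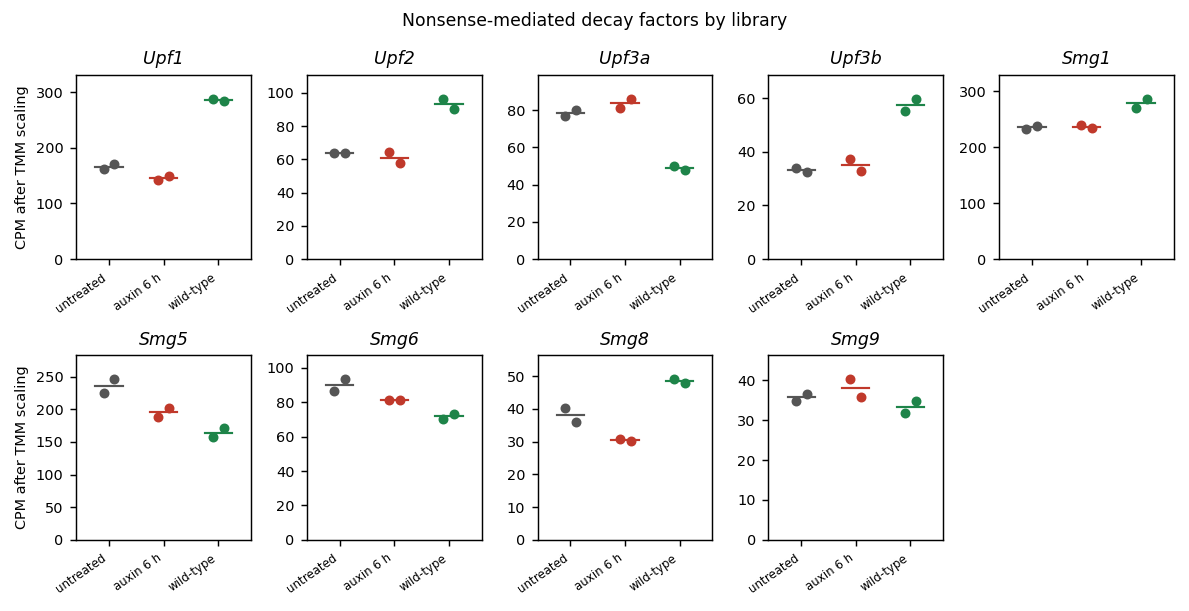
Levels in CPM after TMM scaling (y axis, from 0) of 9 NMD genes in the 6 libraries, with 1 point per library and a line at the mean of each group. The wild-type libraries lie above the untreated ones for Upf1 (283 and 288 against 162 and 170 CPM) and Upf3b and below them for Upf3a and Smg5.

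Among the adaptors, Tob1 was higher in wild-type than in untreated cells, with 24.9 and 23.8 against 45.3 and 45.7 CPM and a log2 fold change of 0.89 (SE 0.0795, adjusted p = 2.54e-06), the largest among the members. Tob2 was lower, with 25.8 and 25.1 against 21.8 and 21.3 CPM and a log2 fold change of −0.25 (adjusted p = 0.0359), but DESeq2 did not call it. The call held in 7 of 12 alternatives, among them mitochondrial mRNA scaling, which made every member tested lower and so gives no support. Zfp36l2 was higher (43.7 and 41.6 against 75.1 and 72.6 CPM, log2 fold change 0.79, adjusted p = 2.67e-06), and so was Zfp36l1 (40.6 and 37.6 against 54.3 and 58.2 CPM, log2 fold change 0.52, adjusted p = 0.00014). Zfp36 was not called, with 24.0 and 20.3 against 23.2 and 23.2 CPM and an interval of −0.17 to 0.29. In Zfp36l1 the partner on the other strand, Gm26669, had 10 and 15 counts in the wild-type libraries.

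The deadenylases were mixed. Cnot8, a catalytic subunit, was lower in wild-type cells (140 and 158 against 111 and 109 CPM, log2 fold change −0.45, adjusted p = 0.000238). Cnot6l, another catalytic subunit, was higher (36.8 and 32.7 against 46.5 and 49.9 CPM, log2 fold change 0.47, adjusted p = 0.000576). Over the 4 catalytic genes 2 were higher and 1 lower, and of the other 6 CCR4-NOT genes 3 were higher, with values from 0.004 (Cnot2) to 0.44 (Cnot10, adjusted p = 0.000111). Cnot1 was higher by 0.16 (adjusted p = 0.0409), a small difference with 730 and 743 against 807 and 845 CPM, whose call held in 6 of 12 alternatives, DESeq2 among them, and turned to lower under scaling to the mitochondrial mRNAs. Pan3 was higher (34.6 and 30.6 CPM against 55.0 in each wild-type library, log2 fold change 0.75, adjusted p = 1.15e-05). Its partner Pan2 was lower, with a log2 fold change of −0.17 (adjusted p = 0.0406), but DESeq2 did not call it. The call held in 7 of 12 alternatives, the same mitochondrial scaling again among them.

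Of the 5 decapping genes 3 were higher in wild-type cells. Dcp2 stood at 132 and 140 against 196 and 195 CPM, with a log2 fold change of 0.51 (SE 0.061, adjusted p = 2.5e-05). Edc4, the scaffold of the decapping complex, was lower (log2 fold change −0.25, adjusted p = 0.00337). Xrn1 was higher by 0.26 (adjusted p = 0.00613), and Xrn2 differed by −0.06 (interval −0.20 to 0.08). Thus the genes of decapping and of 5′ digestion did not share 1 direction.

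The Lsm genes showed some of the larger differences of the set. Lsm12 (65.8 and 67.2 against 115 and 117 CPM, log2 fold change 0.79, adjusted p = 1.36e-06) and Lsm14b, which encodes a P-body and translation factor (56.2 and 62.8 against 109 and 108 CPM, log2 fold change 0.86, adjusted p = 1.69e-06), were higher in wild-type cells. Of the ring genes, Lsm3 was higher (33.6 and 43.1 against 68.2 and 66.1 CPM, log2 fold change 0.80, adjusted p = 3.67e-05). Lsm4, the most abundant member per kb, was lower (234 and 271 against 193 and 189 CPM, log2 fold change −0.41, adjusted p = 0.000492). Lsm10, which with Lsm11 forms the U7 snRNP ring of histone mRNA processing, was lower (28.8 and 23.6 against 16.8 and 17.2 CPM, log2 fold change −0.63, adjusted p = 0.000628). Over the ring 4 genes were higher, 1 was lower and 2 were not called, and over the other Lsm genes the counts were 2, 1 and 2.

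The exosome had the largest share of genes without a call among the role groups. Of 9 genes 2 were higher, 1 was lower and 6 were not called. Exosc7 was the furthest from 0 (46.4 and 45.9 against 69.5 and 66.1 CPM, log2 fold change 0.55, adjusted p = 4.15e-05). Exosc10 was lower, with a log2 fold change of −0.17 (122 and 124 against 115 and 106 CPM, adjusted p = 0.0462), a call near the threshold that DESeq2 did not make.

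**Figure D5:**
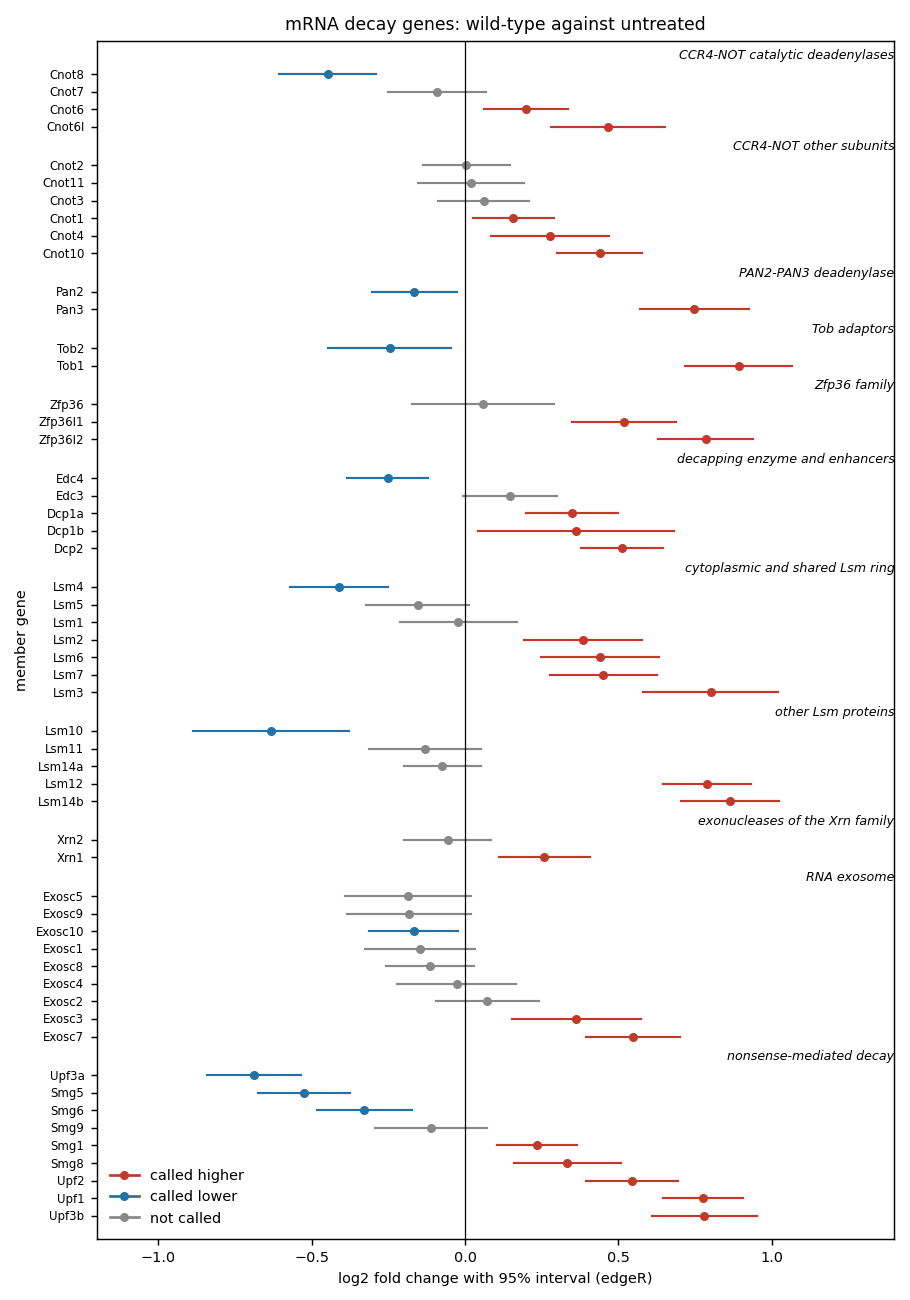
Log2 fold change (x axis) of the 54 members tested, wild-type against untreated under TMM scaling, with the 95% interval from the edgeR fit, ordered by role and then by size. The values run from −0.69 (Upf3a) to 0.89 (Tob1), with 26 members called higher (red), 10 called lower (blue) and 18 not called (grey).

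Further genes of mRNA decay outside the symbol rule were taken from a list of genes, of which 70 are described here and were tested in both comparisons. After auxin none was higher by edgeR or DESeq2, beside 2.56% of all genes called higher by edgeR. By edgeR 2 were lower, beside 1.64% of all genes, both of them mRNA-binding decay factors. At an unadjusted p under 0.05, 3 were higher and 17 lower. Many genes meet that limit, and the share of all genes in each direction is not given, so no trend is read from these counts. Ythdf2, a reader of m6A that brings mRNAs to CCR4-NOT, had 59.1 and 53.0 CPM in untreated and 42.2 and 41.7 CPM in auxin-treated libraries (log2 fold change −0.40, SE 0.082, edgeR adjusted p = 0.0182). Ythdf1, its paralog, had 105 and 101 against 80.6 and 84.8 CPM (log2 fold change −0.30, adjusted p = 0.0284). DESeq2 called neither Ythdf2 nor Ythdf1. Ythdf3, another paralog, was not called by edgeR (log2 fold change 0.01, adjusted p = 0.945). The median log2 fold change over the list was −0.05.

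In the wild-type comparison 33 of the 70 genes were higher and 12 lower, beside 29.9% and 30.7% of all genes tested, and by DESeq2 30 and 8, with a median log2 fold change of 0.17. The higher genes with the smallest p-values were Khsrp (log2 fold change 1.08, adjusted p = 7.39e-08) and Hnrnpd (1.12, adjusted p = 7.44e-08), which encode AU-rich element binding proteins, and Ddx6 (1.02, adjusted p = 9.58e-08), a helicase of P-bodies. Ddx6 stood at 245 and 241 against 484 and 504 CPM. The lower genes with the smallest p-values were Samd4 (−1.55, adjusted p = 4.95e-06), a Smaug protein that recruits CCR4-NOT, Angel2 (−0.66, adjusted p = 1.49e-05) and Nudt16 (−0.99, adjusted p = 0.000434), a decapping enzyme. Samd4 stood at 37.7 and 27.1 against 11.0 and 11.3 CPM. By list, 11 of 17 mRNA-binding decay factors were higher and 3 lower, 8 and 1 of 12 exon junction and termination factors of NMD, 4 and 3 of 14 exosome nucleases and cofactors, 3 and 3 of 11 other deadenylases and tail enzymes, and 2 and 2 of 9 other decapping and P-body factors. Of 7 genes of miRNA silencing 5 were higher and none lower (1 lower at an unadjusted p under 0.05 and 0 by DESeq2).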

How the data were processed

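PolyA RNA-Seq counts of 6 libraries were analysed. The authors aligned paired reads to mm10 with HISAT2 2.1.0, counted them per GENCODE gene with salmon and htseq-count, and deposited whole-number counts, not normalized. The strand setting and the annotation release are not given in the sources used here. The authors' own DESeq2 columns were not used, and 2 columns of counts matched no sample of the series and were not used. In each comparison, the 4 libraries were tested over all genes with edgeR 4.0.16 in R 4.3.3 (glmQLFit and glmQLFTest, TMM, filterByExpr with a minimum count of 10, prior count 0.125), with Benjamini-Hochberg adjustment and calls at an adjusted p under 0.05. The SE was taken from the quasi-likelihood F. The study called changes with DESeq2 at an absolute log2 fold change over 1. CPM used TMM factors over all 6 libraries. Counts carry no molecular identifiers, so intervals cover the spread between libraries and counting error only. The procedure was tested on simulated data, with known changes in genes of all levels that passed the filter. At an absolute log2 change of 0.5 it recovered 36 of 67 changed genes in the auxin and 42 of 65 in the wild-type setting. A gene that was not called may thus still have changed by that size. False calls were 10 of 160 and 7 of 165. In the wild-type setting these 165 calls were among 15477 genes, while the real comparison called 60.6% of all genes. Recovery and false calls may thus differ there. Positions, exon lengths and 3′ untranslated regions came from GENCODE M21 (mm10), and promoters from RefSeq.

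The members, role groups, lists and tests were chosen with earlier results of these data known. The genes named are Polr2a, every member called after auxin, the 10 called members with the smallest p per direction in the wild-type comparison, the member with the largest absolute change of each role group in each comparison, the Tob and Zfp36 genes, the central members Cnot1, Pan2, Dcp2, Xrn1, Xrn2, Exosc10 and Upf1, members that failed the filter, and of the further decay genes those called after auxin and the 3 with the smallest p per direction in wild-type cells. Other members were named after their values were seen, as the ends of a range, as the nearest to a threshold or as a partner of a named gene. Ythdf3 was likewise named as a paralog of named genes. Alternatives were DESeq2 1.42.0, its size factors in edgeR, library totals, mitochondrial mRNA scaling, no filter, a stricter filter of 10 counts in each library, a replicate block, all 3 groups in one fit, and leaving out each library in turn, where the single library left in a group is assumed to vary like the other group. A gene matched by the rule and a gene of the further list are not reported here and are left out of the counts of members, but not of the fits or of the shares over all genes.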

Additional observations from a re-analysis of the deposited data

How the results depend on the processing

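No paired analysis was used for the results, since same-numbered libraries share only a number: their deviations from the group means correlated at 0.07 in the auxin and −0.03 in the wild-type comparison. The replicate block left 3 members higher after auxin and gave 4 lower (0 without the block), and gave 25 higher and 8 lower in wild-type cells. After auxin, mitochondrial mRNA scaling gave 1 higher, beside 1.36% of all genes called in either direction. No filter gave 1 higher, and all 3 groups in one fit gave 3 lower. Leaving out 1 library gave 2 to 3 higher and 0 to 11 lower after auxin, and 20 to 26 higher and 6 to 11 lower in wild-type cells. DESeq2 called 0 of the 2 further decay genes lower after auxin. The cause of these shifts was not tested. Mitochondrial mRNA scaling, which moved the median of all genes by −0.17 after auxin and −2.10 in wild-type cells, gave 0 members higher and 54 lower there, and by its construction turned 32 positive log2 fold changes negative: Cnot2 −2.09, Cnot11 −2.08, Zfp36 −2.04, Cnot3 −2.03, Exosc2 −2.02, Edc3 −1.95, Cnot1 −1.94, Cnot6 −1.90, Smg1 −1.86, Xrn1 −1.84, Cnot4 −1.83, Smg8 −1.77, Dcp1a −1.75, Dcp1b −1.73, Exosc3 −1.72, Lsm2 −1.70, Cnot10 −1.66, Lsm6 −1.65, Lsm7 −1.64, Cnot6l −1.64, Dcp2 −1.58, Zfp36l1 −1.58, Upf2 −1.55, Exosc7 −1.55, Pan3 −1.35, Upf1 −1.32, Upf3b −1.32, Zfp36l2 −1.31, Lsm12 −1.31, Lsm3 −1.28, Lsm14b −1.23 and Tob1 −1.21. Depth limits the low members, such as Zfp36l3 with 2 to 17 counts.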

Other observations

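The subunits listed under older symbols were tested in the same fits. Cnot9, listed as Rqcd1 and encoding the subunit through which several mRNA-binding proteins reach CCR4-NOT, had 111 and 117 CPM in untreated, 96.7 and 102 CPM in auxin-treated and 123 and 123 CPM in wild-type libraries. Its log2 fold change was −0.18 after auxin (edgeR adjusted p = 0.155) and 0.11 in wild-type cells (adjusted p = 0.163). Lsm8, listed as Naa38 and encoding the subunit that makes the ring of Lsm2 to Lsm7 nuclear, had 30.1 and 32.9 CPM in untreated, 28.3 and 27.6 CPM in auxin-treated and 58.4 and 54.0 CPM in wild-type libraries. It was not called after auxin (log2 fold change −0.15, adjusted p = 0.380) and was higher in wild-type cells (0.83, adjusted p = 5.38e-06). Lsm1, which takes its place in the cytoplasmic ring, had 29.1 and 32.3 CPM in untreated and 30.2 and 30.6 CPM in wild-type libraries, a log2 fold change of −0.02 (adjusted p = 0.843). The difference between Lsm8 and Lsm1 was itself not tested.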
